A study of Mus musculus with 4 samples.

Results

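The genes described here are 10 members of the Notch pathway: the receptors Notch1, Notch2 and Notch3, the ligands Dll1, Dll3 and Jag1, and the effectors Hes1, Hes5, Hey1 and Nrarp. They were chosen by gene symbol, each symbol matched 1 row, and they are 10 of the 20421 genes in the table. The source was brain of C57BL/6 mice at embryonic day 15, labelled WT or FOXM1f/+;Nestin-Cre. FOXM1 is a transcription factor of the later cell cycle, the series' title names the human gene, and Nestin-Cre expresses Cre recombinase in neural stem and progenitor cells. There are 4 listed samples, 2 of each genotype, and the design text speaks of triplicates, but the table has a single column of read counts for either genotype. The labels do not say if a column stands for 1 embryo or several pooled. Of the samples labelled WT, 1 has nestin and 1 has foxm1 in its title, and the labels do not say which alleles these controls carry or how the FOXM1 allele was built.

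The FOXM1f/+;Nestin-Cre column is called the transgenic library and had 17856653 reads, against 17543705 for WT. All 10 members passed the minimum of a mean of 1 CPM (read counts scaled to the size of the library) that left 14557 genes tested. With 1 library per genotype there is no replicate check. Brackets give exact 95% intervals for counting error alone, and none of them measures the spread between embryos. The libraries differed in sex-linked RNA, with 9628 against 5 reads of Xist and 0 reads of Uty, Ddx3y, Kdm5d and Eif2s3y, all Y-linked, in the transgenic library. Mouse Foxm1 had 1289 reads in the transgenic and 1139 in the WT library, and reads of the human gene were not analysed here. The part of sex in the differences below was not tested.

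Notch signalling passes between touching cells. A Delta or Jagged ligand on one cell binds a Notch receptor on its neighbour, gamma-secretase then frees the receptor's intracellular domain, and that domain joins Rbpj on DNA and switches on repressors of the Hes and Hey families. In the embryonic cortex these repressors hold down proneural factors and keep radial glia, the neural stem cells, from differentiating, while newborn neurons and intermediate progenitors present the ligands.

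Hes5 and Nrarp are both known targets of the pathway, and the bases before their start sites are shown because the libraries differed in the first and not detectably in the second. Dll1 is shown because proneural factors are known to switch it on through E-boxes. RefSeq (GRCm38.p6) gave start-site windows for 8 of the 10 members, 9 windows in all, and none for Hes1 and Hey1. Each sequence below is the 250 bases before the annotated start, 5′ to 3′ on the gene's strand. They lie at chr4:154960673-154960922 (plus strand) for Hes5, chr2:25180508-25180757 (plus strand) for Nrarp and chr17:15376933-15377182 (minus strand) for Dll1, the outer of the start sites given for that gene, and 1 annotated exon overlaps each of the Hes5 and Dll1 windows. Capitals mark the Rbpj core TGGGAA or its reverse complement in Hes5 and Nrarp, and the E-box CANNTG in Dll1.
Hes5: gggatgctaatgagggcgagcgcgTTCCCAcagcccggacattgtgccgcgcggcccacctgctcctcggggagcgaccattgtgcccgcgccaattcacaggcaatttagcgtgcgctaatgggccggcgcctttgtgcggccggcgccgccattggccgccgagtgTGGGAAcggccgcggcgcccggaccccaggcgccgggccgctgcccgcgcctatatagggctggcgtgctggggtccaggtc
Nrarp: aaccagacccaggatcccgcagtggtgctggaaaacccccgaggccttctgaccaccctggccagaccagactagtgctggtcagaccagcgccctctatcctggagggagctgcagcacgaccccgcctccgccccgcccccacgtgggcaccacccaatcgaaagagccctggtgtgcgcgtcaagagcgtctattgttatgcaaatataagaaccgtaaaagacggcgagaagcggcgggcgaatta
Dll1: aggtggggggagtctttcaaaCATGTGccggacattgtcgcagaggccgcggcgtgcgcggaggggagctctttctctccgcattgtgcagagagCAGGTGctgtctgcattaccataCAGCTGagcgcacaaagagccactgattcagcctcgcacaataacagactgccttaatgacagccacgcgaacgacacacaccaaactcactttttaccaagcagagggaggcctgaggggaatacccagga

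The Hes5 window held 2 Rbpj cores, at 226 and 82 bases before the start. The windows of the other 7 members with a sequence held none on either strand. Hes1 and Hey1 had no window and were not searched, so Hes5 cannot be set against them. Of 32851 windows of that length across all genes, 21.6% held at least 1 core and 2.77% held 2 or more. The Dll1 window printed here held 3 E-boxes, at 229, 155 and 132 bases before the start, and 12.2% of all windows held 3 or more. The window of the other Dll1 start site, at chr17:15375824-15376073, held 1, and 66.2% of all windows held at least 1. The window of Nrarp held 2 matches to the N-box CACNAG, which Hes proteins can bind, as did that of Notch3, and 8.18% of all windows held 2 or more. An N-box and an E-box can overlap, both strands were searched, and a match of letters is a description and not a bound site.

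The members did not move as a block. Of the 10 members, 5 were at least 1.2-fold higher in the transgenic library (Notch1, Notch3, Dll1, Hes5 and Hey1), beside 11.5% of all tested genes. One member, Jag1, was at least 1.2-fold lower, beside 15.7% of tested genes. The same 5 members had intervals wholly above 1, beside 16.5% of tested genes, and 2 members, Dll3 and Jag1, had intervals wholly below 1, beside 19.2%. The intervals of Notch2, Hes1 and Nrarp spanned 1. None of the 10 members was 1.5-fold higher or lower, against 2.53% and 5.23% of tested genes, and none was 2-fold higher or lower, against 0.522% and 1.83%. The median log2 ratio of the members was 0.19, with a range from -0.49 to 0.57, and that of all tested genes was -0.01. In whole brain RNA, more cells of a type and more RNA per cell cannot be told apart.

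**Figure D1:**
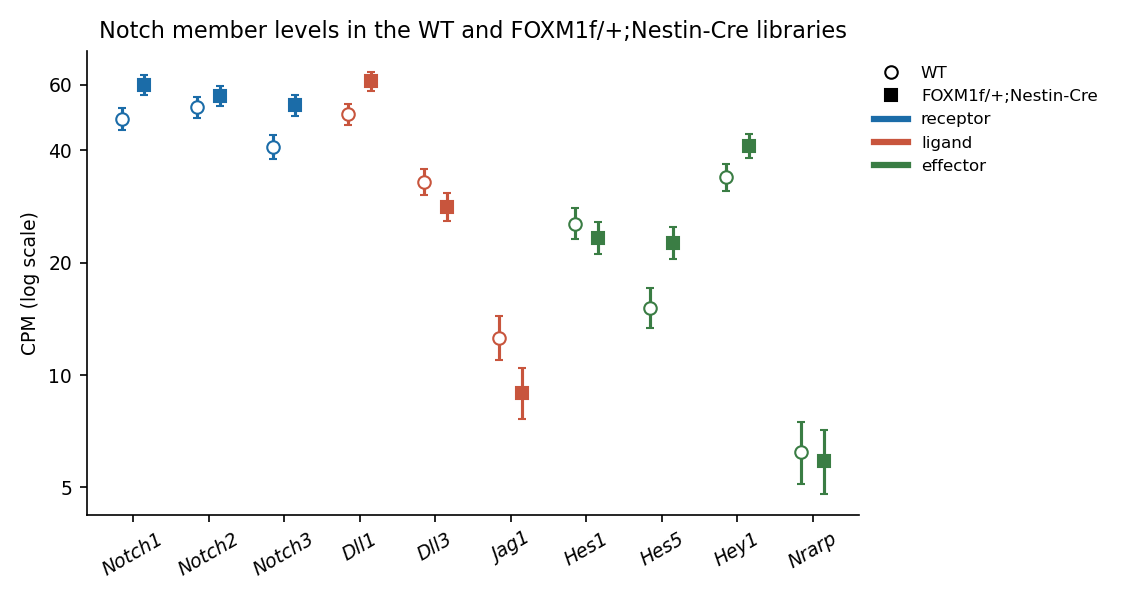
Level of each member in CPM (log axis) in the WT library (open circles) and the FOXM1f/+;Nestin-Cre library (filled squares), coloured by role, with 95% exact Poisson intervals that cover counting error only. Hes5 goes from 15.2 to 22.6 CPM and Jag1 from 12.6 to 8.96 CPM. The intervals of Nrarp, Hes1, Notch2 and Dll3 overlap between the libraries, though the interval of the ratio of Dll3 lies below 1.

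Among the receptors, Notch1 and Notch3 were higher in the transgenic library, and the interval of Notch2 spanned 1. Notch1 (ENSMUSG00000026923, chromosome 2, 26457903 to 26516663), the receptor of cortical radial glia studied most, had 1068 transgenic reads (59.8 CPM) and 850 WT reads (48.4 CPM). That is a ratio of 1.23 (1.13 to 1.35). Notch3 (ENSMUSG00000038146, chromosome 17, 32120820 to 32166880), which is made by radial glia and also by the mural cells of vessels, had 943 against 715 reads, or 52.8 against 40.7 CPM. Its ratio was 1.30 (1.17 to 1.43), the largest of the 3 receptors, and 6.32% of tested genes had a ratio as high or higher. Notch2 (ENSMUSG00000027878, chromosome 3, 98013527 to 98150361) had 1002 against 917 reads, or 56.1 against 52.3 CPM, a ratio of 1.07 (0.981 to 1.18). The intervals of Notch1 and Notch2 overlapped. Summed over the receptors, 3013 against 2482 reads gave a ratio of 1.19 (1.13 to 1.26).

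The ligands went in opposite directions. Dll1 (ENSMUSG00000014773, chromosome 17, 15367354 to 15376872), the Delta ligand that activates Notch on neighbouring cells, had 1093 transgenic reads (61.2 CPM) and 877 WT reads (49.98 CPM), a ratio of 1.22 (1.12 to 1.34). Dll3 (ENSMUSG00000003436, chromosome 7, 28293553 to 28302238), a Delta-like protein that dampens signalling within its own cell and is not known to activate neighbours, had 504 against 578 reads, or 28.2 against 32.9 CPM. It was 1.17-fold lower (1.03 to 1.32). Jag1 (ENSMUSG00000027276, chromosome 2, 137081456 to 137116644), a Jagged ligand, was low in both libraries, at 160 against 221 reads or 8.96 against 12.6 CPM. It was 1.41-fold lower (1.14 to 1.73), the largest difference downward among the members, and 6.88% of tested genes had a ratio as low or lower. The summed reads of the ligands, 1757 against 1676, had a ratio of 1.03 (0.963 to 1.10), so the sum hides the split between Dll1 and the other two.

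The effectors split as well. Hes5 (ENSMUSG00000048001, chromosome 4, 154960923 to 154962371), a repressor of proneural genes whose transcription depends on Notch in radial glia, had 403 transgenic reads (22.6 CPM) and 266 WT reads (15.2 CPM). Its ratio of 1.49 (1.27 to 1.74) was the largest among the members, and 2.69% of tested genes had a ratio as high or higher. Hey1 (ENSMUSG00000040289, chromosome 3, 8663359 to 8667256), a related repressor, had 735 against 594 reads, or 41.2 against 33.9 CPM, a ratio of 1.22 (1.09 to 1.36).

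Hes1 (ENSMUSG00000022528, chromosome 16, 30064384 to 30067796), which acts beside Hes5 in radial glia and also answers to other signals, did not share that direction. It had 416 transgenic reads (23.3 CPM) and 447 WT reads (25.5 CPM), a ratio of 0.914 (0.798 to 1.05). Nrarp (ENSMUSG00000078202, chromosome 2, 25180758 to 25183339), an ankyrin-repeat protein that is induced by Notch and limits it in turn, had 105 against 109 reads, or 5.88 against 6.21 CPM. Its ratio was 0.946 (0.717 to 1.249), the widest interval of the members, so a ratio of the size of Hey1 was not detectable at this depth.

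**Figure D2:**
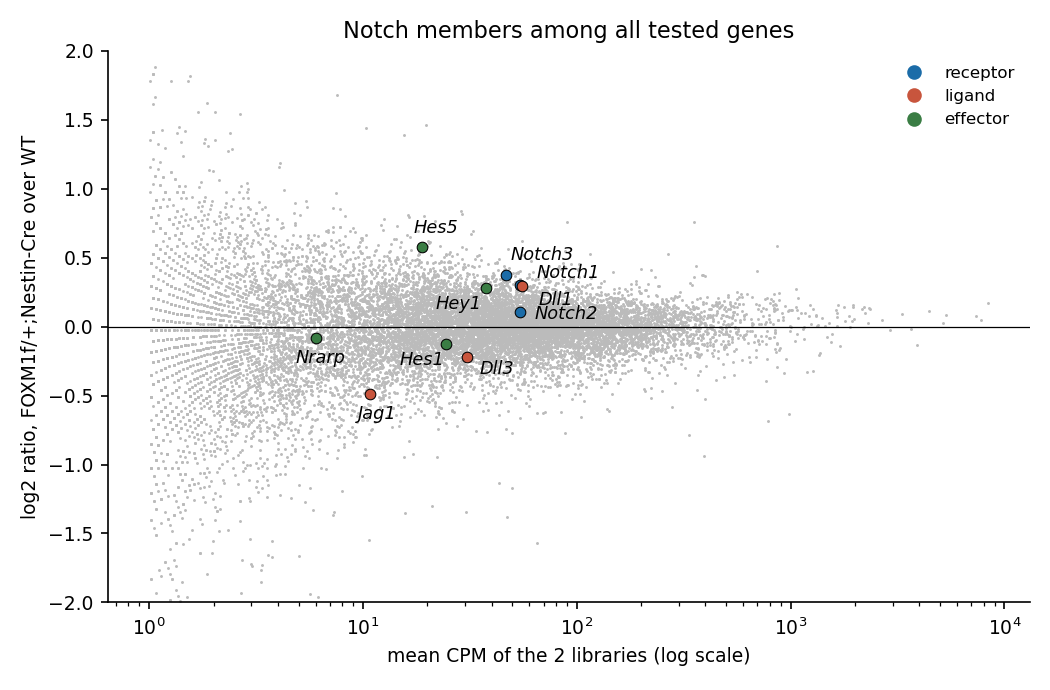
Log2 ratio of the FOXM1f/+;Nestin-Cre over the WT library (vertical axis) against mean CPM (log axis) for all tested genes in grey, with the 10 members coloured by role. Genes at 0 reads in a library and 66 genes beyond 2 log2 units in either direction are not drawn. Hes5 at 0.57 is the highest member and Jag1 at -0.49 the lowest.

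Ratios between members within a library do not depend on how the libraries are scaled. All 12 pairs of members that share a role were compared, each written so that the member with the higher ratio comes first. That order fixes the direction, so a pair could only lie above 1 or span it. By 95% exact interval, 8 of the 12 pairs lay above 1 and 4 spanned it, where 16.5% and 19.2% of single tested genes had intervals above and below 1. The share among pairs of other genes was not computed. The shares of single genes do not stand in for it, so the count of 8 is a description only. With the interval level raised to allow for 12 pairs, 4 stayed above 1: Dll1 to Dll3, Dll1 to Jag1, Hes5 to Hes1 and Hey1 to Hes1.

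In the WT library there were 0.595 reads of Hes5 for each read of Hes1, and in the transgenic library 0.969, a change by a factor of 1.63 (1.32 to 2.01). These are ratios of reads and not of levels, since the merged exons of Hes5 are 1363 bases long and those of Hes1 2037. Reads of Dll1 for each read of Dll3 went from 1.52 in the WT to 2.17 in the transgenic library, a factor of 1.43 (1.23 to 1.66). Reads of Dll1 for each read of Jag1 went from 3.97 to 6.83, a factor of 1.72 (1.37 to 2.16). Among the receptors the shifts were smaller. The factor was 1.21 (1.06 to 1.38) for Notch3 to Notch2 and 1.15 (1.01 to 1.31) for Notch1 to Notch2, and neither interval stayed above 1 when widened for 12 pairs.

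**Figure D3:**
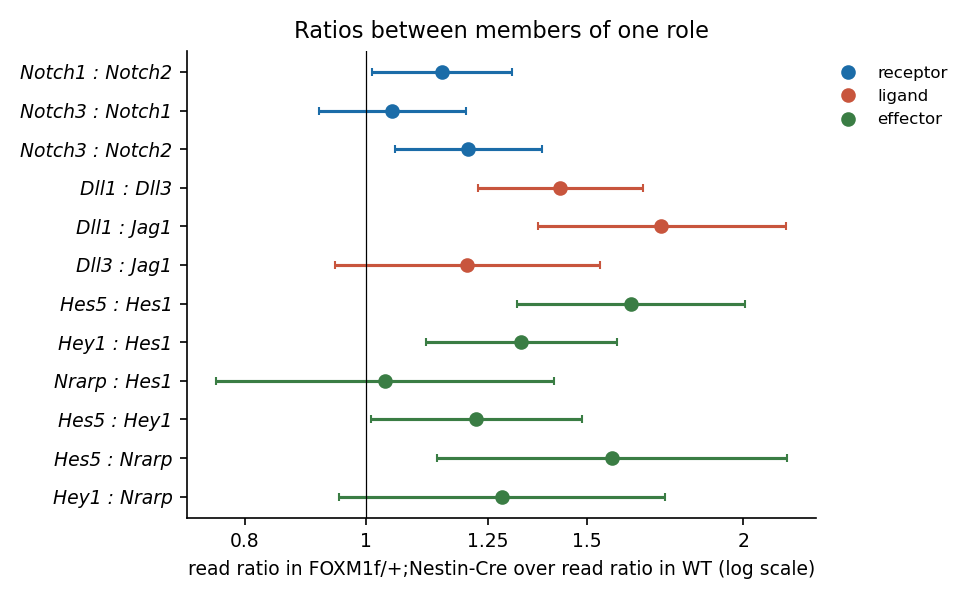
For each of the 12 pairs of members that share a role, the read ratio of the first to the second gene in the FOXM1f/+;Nestin-Cre library over that in the WT library (log axis), with 95% exact conditional intervals that cover counting error only. Dll1 to Jag1 (1.72) and Hes5 to Hes1 (1.63) are farthest from 1, and Nrarp to Hes1 (1.04) is nearest.

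Levels of different genes were compared per kilobase of merged exons. In the WT library Hes1 had 12.5 CPM per kilobase, Dll1 11.8, Dll3 11.6, Hes5 11.1 and Hey1 10.4, and the counting intervals of neighbours in that order overlapped. The receptors Notch3 and Notch2 followed at 5.04 and 4.85 CPM per kilobase, also with overlapping intervals, and Notch1 had 3.40. Nrarp at 2.41 and Jag1 at 2.16 CPM per kilobase were lowest and overlapped. In the transgenic library Hes5 was first with 16.6 CPM per kilobase, ahead of Dll1 at 14.5, with overlapping intervals. Hey1 followed at 12.6, Hes1 at 11.4 and Dll3 at 9.90, and each overlapped its neighbour except that Hey1 lay below Dll1. Notch3 had 6.53, Notch2 5.20, Notch1 4.20, Nrarp 2.28 and Jag1 1.54 CPM per kilobase, with no overlap between neighbours. Several places depended on the length used. Per kilobase of the longest transcript, Notch1 had 6.30 CPM in the transgenic library, between Notch3 at 6.59 and Notch2 at 5.34, and in the WT library 5.11, beside 5.08 and 4.98. On that length Hey1 stood at 16.98 beside Dll1 at 17.1 in the transgenic library. In the WT library the order was then Hes1 at 17.4, Hey1 at 13.97, Dll1 at 13.96, Dll3 at 12.6 and Hes5 at 11.9 CPM per kilobase.

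The rest of the pathway was read from lists of its parts. Among all tested genes, 16.5% had intervals above 1 and 19.2% below 1. Counts near these shares, here and in the cell type lists further on, are no result about a list. Of the other receptors and ligands, 1 of 6 had an interval above 1 and 3 had one below 1. The Jagged ligand Jag2 had 54.6 against 67.4 CPM, 1.23-fold lower (1.13 to 1.35), the direction of Jag1. The non-canonical ligands Dlk1 and Dlk2 went apart, Dlk1 1.21-fold higher (1.10 to 1.33) and Dlk2 lower at a ratio of 0.703 (0.617 to 0.8002). Notch4 and Dll4, which are known from endothelium, had 258 against 257 reads and 161 against 161 reads.

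Fringe enzymes add sugars to Notch that change which ligands it answers. In the list of 6 glycosylation genes, 2 had intervals above 1 and 1 below 1. Mfng had 107 against 85.4 CPM, 1.26-fold higher (1.17 to 1.34), and Lfng had 53.4 against 44.4 CPM, 1.203-fold higher (1.09 to 1.32). Rfng was 1.11-fold lower (1.04 to 1.18), while the fucosyltransferase Pofut1 and the glucosyltransferase Poglut1 had ratios of 1.05 (0.948 to 1.16) and 1.002 (0.913 to 1.10). Of the 4 ubiquitin ligases that prepare ligands for signalling, Mib1 was 1.13-fold higher (1.05 to 1.22), Neurl1a 1.42-fold lower (1.23 to 1.64) and Neurl1b 1.17-fold lower (1.04 to 1.31), and Mib2 had a ratio of 0.984 (0.925 to 1.05).

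The median log2 ratios of these lists were -0.08 for the other receptors and ligands, 0.17 for glycosylation and -0.12 for the ubiquitin ligases. Downstream of the receptor they were -0.05 for cleavage, 0.03 for the Rbpj complex, -0.03 for corepressors and -0.00 for turnover. Of 10 cleavage genes, 2 had intervals above 1 and 3 below 1. The convertase Furin was 1.33-fold lower (1.204 to 1.48) and the presenilin Psen2 1.48-fold lower (1.17 to 1.86), while the gamma-secretase subunit Psenen was 1.15-fold higher (1.04 to 1.26). The sheddase Adam10 and the gamma-secretase subunit Ncstn had ratios of 1.01 (0.939 to 1.09) and 1.02 (0.952 to 1.09). Of 8 genes of the Rbpj complex, 1 had an interval above 1, the coactivator Maml1 at 1.13 (1.01 to 1.28). Rbpj itself, the DNA-binding partner of cleaved Notch, had 108 against 102 CPM and a ratio of 1.05 (0.988 to 1.12).

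Among 12 corepressors, 1 interval was above 1 and 3 below 1. The histone deacetylase Hdac1 was 1.22-fold higher (1.13 to 1.30), and Spen, a corepressor bound by Rbpj, was 1.12-fold lower (1.05 to 1.19). Among 11 genes of Notch turnover, 2 intervals were above 1 and 2 below 1. The ubiquitin ligase Nedd4 was 1.14-fold higher (1.12 to 1.17) and the Deltex ligase Dtx1 1.21-fold lower (1.15 to 1.28). Numbl, a relative of the Notch antagonist Numb, was 1.07-fold lower (1.01 to 1.13).

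Of the other Hes and Hey genes, 4 of 7 passed the level minimum and 1 of these, Hes6, had an interval above 1, with 171 against 158 CPM and a ratio of 1.08 (1.02 to 1.14). Hes6 is unlike its relatives in that it counteracts Hes1 and favours neurogenesis. Hes7, the repressor of the segmentation clock, lay under the level minimum with 13 transgenic reads and 1 WT read, a ratio of 12.8 (1.92 to 543). The proneural factors that Hes proteins repress had 5 of 7 intervals above 1 and 1 below 1, with a median log2 ratio of 0.23. Neurog2 had 238 against 191 CPM, 1.24-fold higher (1.19 to 1.30), and Neurog1 had 203 against 124 reads, 1.61-fold higher (1.28 to 2.03). Hes6 is in this list too. Hes5 and most of the listed factors that Hes proteins can repress were thus higher in the same library.

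**Figure D4:**
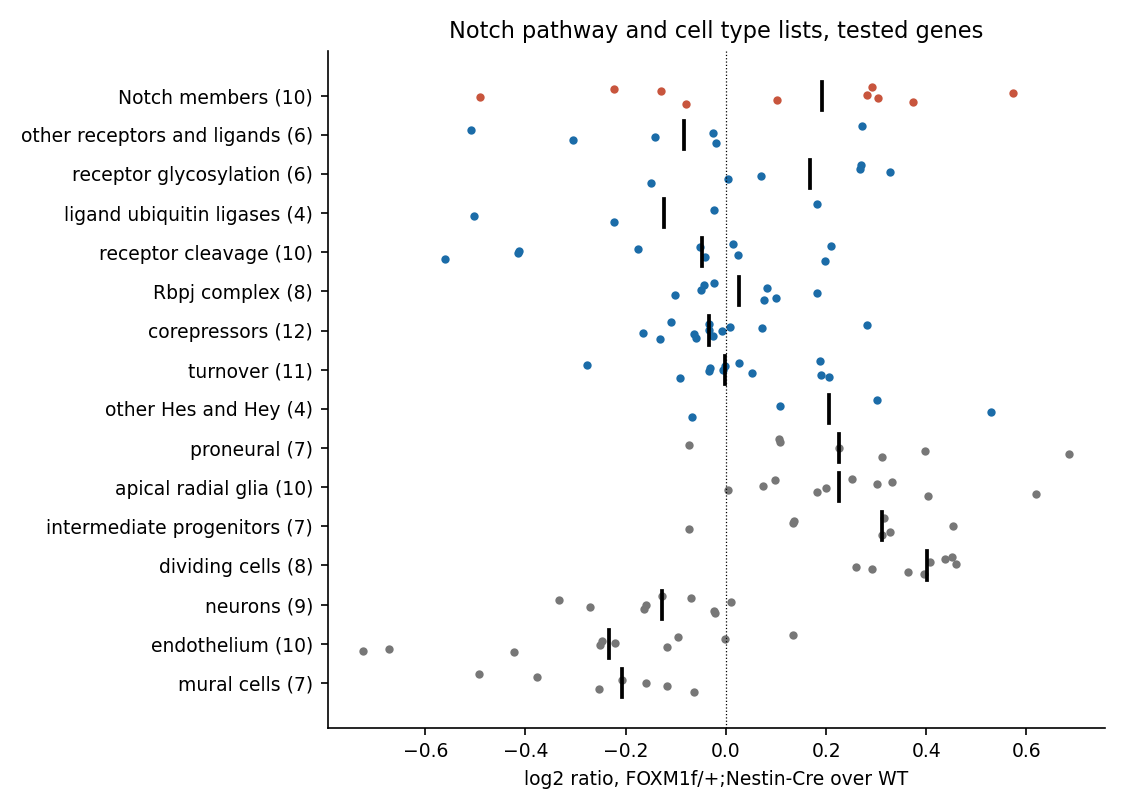
Log2 ratio of the FOXM1f/+;Nestin-Cre over the WT library for each tested gene (points) of the Notch members, 8 lists of other pathway genes and 7 cell type lists, with the number of tested genes in brackets and a black bar at each list's median. The members spread from -0.49 to 0.57, and the turnover list spreads from -0.28 to 0.21 around a median of -0.00.

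Markers of the cells that carry the pathway also differed between the libraries. Of 10 apical radial glia markers, 7 had intervals above 1 and none below, with a median log2 ratio of 0.23, and they summed to 2482 against 2018 CPM. The log2 ratios of Notch1 (0.30), Dll1 (0.29), Hey1 (0.28) and Notch3 (0.37) stood within the range of these markers, which ran from 0.00 to 0.62, as did those of Hes5 (0.57) and Notch2 (0.10). Those of Hes1 (-0.13), Dll3 (-0.22), Jag1 (-0.49) and Nrarp (-0.08) lay below it, with the intervals of Hes1 (-0.33 to 0.07) and Nrarp (-0.48 to 0.32) reaching into it. The upper end of the range was Sox9 alone, and the next marker was Vim at 0.40. Hes5 (interval 0.35 to 0.80) thus lay above every marker but Sox9, with an interval that takes in Vim. All 8 markers of dividing cells had intervals above 1, with a median of 0.40 and sums of 1302 against 1014 CPM, and 6 of 7 intermediate progenitor markers had intervals above 1, with a median of 0.31, that list sharing Mfng and Neurog2 with those above. Of 9 neuronal markers, 7 had intervals below 1, with a median of -0.13 and sums of 6471 against 6977 CPM. The part of these cell types in the members' ratios was not tested.

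Vessels and choroid plexus carry Notch genes too. Of 10 endothelial markers, none had an interval above 1 and 4 had one below 1, with a median of -0.23 and sums of 160 against 182 CPM. Of 7 tested mural cell markers, all 7 had ratios below 1, as did 7518 of the 14557 tested genes. By interval, 2 of the 7 lay below 1 and 5 spanned it. Their median was -0.21, and the sums over all 10 listed markers were 121 against 141 CPM. Only some of the pathway genes that vessels are known to make are given here. Of these, Notch3 and Hey1 were higher in the transgenic library and Jag1 lower. The intervals of Notch4 (0.827 to 1.18), Dll4 (0.785 to 1.23) and Heyl (0.746 to 1.22) spanned 1. Of 7 tested choroid plexus markers, 6 had intervals below 1, with sums over all 9 listed markers of 26.4 against 729 CPM, and Ttr, its thyroid hormone carrier, was 64.7-fold lower. Markers of oligodendrocyte precursors (4 of 6 intervals below 1), astroglia (3 of 5) and microglia (5 of 8) were also lower and none higher by interval, while 6 of 9 erythroid markers had intervals above 1. No marker in these lists was at 0 reads in either library. The part of vessels and plexus in the members' ratios was not tested.

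In the authors' deposited table, none of the 10 members was marked as significant, against 9.46% of all genes in it. In the authors' deposited table no marked gene had a fold under 1.501, and Hes5 stood at 1.49. For 7 of the 10 members the adjusted p-value in the authors' deposited table was under 0.05, beside 22.9% of all 20421 genes, with values from 2.37e-06 for Notch3 and 5.23e-06 for Hes5 to 0.0342 for Dll3. Those p-values set 1 library against another and compare the libraries, not the genotypes. The shares of 9.46% and 22.9% include genes under the level minimum, which the other shares leave out.

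Annotated exons of 6 members overlap those of another gene in GENCODE release M21, on the opposite strand in all but Notch2. The partners of Notch1, Notch3 and Dll1 that are in the table had few reads. The most were those of A930024N18Rik, antisense to Dll1 over 867 bases, with 50 against 59 reads, or 4.57% and 6.73% of the reads of Dll1. The partners of Notch2, Hes5 and Nrarp are not in the table, so their reads are unknown. They overlap 2051 of the 2582 exon bases of Nrarp, 433 of the 1363 of Hes5 and 541 of the 10782 of Notch2. The sources used here do not give the strand setting of the counting, and reads of a member and its antisense partner may be mixed. Hes1, Hey1, Dll3 and Jag1 have no such partner.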

How the data were processed

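Total RNA of brain, extracted with Trizol, was sequenced on an Illumina instrument, per the labels' protocols and the series' design text. Bowtie2 2.2.3, TopHat2 2.0.12, HTSeq 0.6.0 and the genome mm9 are named in the submitters' processing notes, while 91.6% of the identifiers shared with GENCODE M21 carried the GRCm38 start and end. The sources used here do not give the annotation, strand setting or handling of multiply mapped reads.

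The authors deposited raw read counts and CPM, 1 column of each per genotype. The deposited CPM are the counts times a constant per column, with a count of 0 entered as 0.5 reads. The deposited fold change is the ratio of the CPM columns, the deposited log2 column is its logarithm, and the sources used here do not name the test behind the deposited p-values. Columns were matched to a genotype by name and to no sample.

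Ratios are of CPM, FOXM1f/+;Nestin-Cre over WT, with exact conditional (Clopper-Pearson) 95% intervals for the ratio of 2 Poisson rates, for genes whose mean CPM was 1 or more. No test was run, since each genotype has 1 library. Without molecular identifiers, reads are not independent molecules, so intervals cover counting error only. A count of 0 allows up to 3 reads, 0.168 CPM in the transgenic library. Exon lengths come from GENCODE M21 and were added after the table was seen to hold none. The members, lists and thresholds were chosen with earlier results of these data known. Named genes of a list are up to 3 detected genes whose interval excludes 1, by log2 ratio over its counting error, then up to 2 of highest mean CPM whose interval spans 1, and not all are printed. Alternatives were TMM and RLE scaling, other level minimums, other folds and a 99% interval. The intervals were tested on simulated counts that held counting error only, so that test cannot speak to the spread between embryos. Python 3.11.15, NumPy 2.4.6, pandas 2.3.3, SciPy 1.17.1, Matplotlib 3.10.9, R 4.3.3 and edgeR 4.0.16 (scaling factors only) were used.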

Additional observations from a re-analysis of the deposited data

How the results depend on the processing

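No paired analysis was possible because each genotype has 1 column of counts and no column names a sample, and for the same reason no replicate could be left out. Under TMM and RLE scaling all 10 members kept the direction of their ratio, and the counts of members past 1.2-fold and of intervals on one side of 1 stayed the same. These counts were also the same without a level minimum, when both libraries had to reach 1 CPM and when the minimum mean was 10 CPM, which leaves out Nrarp. The share of all genes at least 1.2-fold higher and lower did move, from 11.5% and 15.7% to 18.2% and 24.0% without a minimum and to 6.63% and 7.85% at a mean of 10 CPM. At a fold of at least 1.5 the counts of higher and lower members were 0 and 0, and at a fold of at least 2 they were 0 and 0. With 99% intervals 5 members stayed above 1 and 1, Jag1, stayed below 1. The share of all tested genes with a 99% interval on either side of 1 was not computed. Without the 6 members that overlap another gene, an alternative chosen after seeing the data, 4 members were left. Of these, 1 was at least 1.2-fold higher and 1 had an interval above 1, both Hey1. Jag1 was at least 1.2-fold lower, and Dll3 and Jag1 had intervals below 1. The median log2 ratio was then -0.18, against 0.19 for all 10 members. Depth limits Nrarp and Jag1 most, and no setting stands in for the missing spread between embryos.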

Other observations

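The deposited table annotates 107 genes with the gene ontology term for the Notch signaling pathway, of which 87 passed the level minimum, 9 of them members described above. Of the other 78, 13 had intervals above 1, 18 below 1 and 47 spanning 1, with a median log2 ratio of -0.03. That is near the 16.5% above and 19.2% below 1 among all tested genes, so these counts are no result about the pathway. Outside the lists above, 42 annotated genes were tested and 16 had intervals that exclude 1, beside those same shares of all tested genes. Among these, 3 were at least 1.5-fold higher in the transgenic library: the forkhead factor Foxc1 (78 against 47 reads), Pgam2, a muscle phosphoglycerate mutase (94 against 55 reads), and Mesp2, a somite factor (40 against 22 reads). The 3 that were at least 1.5-fold lower were Cntn1, a neuronal adhesion protein that can bind Notch (316 against 475 reads), the myeloid factor Cebpa (32 against 60 reads) and the homeobox factor Hhex (16 against 31 reads). These 6 genes were chosen after their values were seen, and all but Cntn1 had under 100 reads in each library. Sox9, a radial glia factor in the same annotation and in the radial glia list, had 1203 against 770 reads, a ratio of 1.54 (1.40 to 1.68) that is close to that of Hes5.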
